A study of Branchiostoma lanceolatum with 24 samples.

Results

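A set of 149 of 96094 transcriptome contigs was higher in SU5402 embryos than in DMSO embryos of the European amphioxus, Branchiostoma lanceolatum, at both treatment stages and after all 3 exposure times. A contig is a piece of assembled transcript, and its level is given in CPM, its read count divided by the total of its library, per 1000000 reads. A contig was a member when, in each of the 6 pairs of groups, its lowest SU5402 library was at least 2 times its highest DMSO library and its mean SU5402 level was at least 1 CPM. The members were thus chosen by these ratios and levels, which are given as values with no test. Tests are given for the change of level with time in each treatment and for the differences between ratios, whose order the rule did not fix, in the same libraries that chose the members.

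SU5402 groups were kept at 50 µM and collected at 8, 11 and 14 hours post fertilization (hpf), after 3, 6 and 9 h of treatment begun at 5 hpf (the early series), or at 18.5, 21.5 and 24.5 hpf, after 3, 6 and 9 h of treatment begun at 15.5 hpf (the late series). DMSO groups were kept in 0.1% DMSO over the same hours. Each of the 12 groups held 2 RNA-seq libraries, each made from a mix of whole embryos in filtered sea water and holding 10866511 to 39988564 reads. The sources used here give neither strain nor number of embryos per library, nor whether SU5402 embryos also received DMSO or whether libraries came from separate spawnings, so the p-values measure a spread that may be technical.

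The inhibitor SU5402 acts on the kinase domain of FGF receptors. FGF ligands bind these receptors at the cell surface, and the kinase passes the signal on through Ras and ERK to transcription factors of the ETS family. In amphioxus embryos FGF signalling is known for its part in forming the anterior somites, the segmented blocks of mesoderm. The table pairs no contig with a gene, and 0 identifiers matched the RefSeq gene table of the species, so contigs are named by identifier and no role can be stated for any of them. In whole embryos, more cells that express a transcript and more transcript per cell cannot be told apart.

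Few contigs met the conditions throughout. In single pairs they were met by 3.47%, 6.6% and 4.88% of all contigs at 3, 6 and 9 h of the early series, and by 3.16%, 2.32% and 1.39% at 3, 6 and 9 h of the late series. In all, 11406 contigs met them in at least 1 pair, 1531 in all 3 early pairs and 677 in all 3 late pairs. The 149 members were 9.73% of the first of these series lists and 22% of the second. A further 258 contigs met them in 5 pairs, of which 147 missed at 3 h of early treatment and 95 at 9 h of late treatment. Most of these were still higher in the mean of SU5402 embryos there, 141 of the 147 and 91 of the 95. With SU5402 and DMSO exchanged, 0 contigs met the conditions in all 6 pairs. Single pairs also held fewer such contigs, with 642, 1106 and 1102 at early 3, 6 and 9 h, against 3334, 6343 and 4693 unexchanged. At late 3, 6 and 9 h there were 811, 1133 and 900, against 3038, 2226 and 1340.

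The limits of the set were not sharp. ContigAmph29501 was just inside the fold limit, at 1.77 and 3.01 CPM in SU5402 libraries against 0.601 and 0.875 CPM in DMSO libraries at late 9 h, a lowest to highest ratio of 2.02. ContigAmph33743 was also just inside, with a ratio of 2.03 at early 3 h. ContigAmph13298, with a ratio of 1.99 at late 6 h, and ContigAmph15287, with 1.99 at early 3 h, were just outside. At the level limit, ContigAmph61991 was inside with a mean of 1.01 CPM in late 9 h SU5402 embryos and ContigAmph28619 outside with 0.985 CPM in early 3 h SU5402 embryos. Another 662 contigs with reads in all 12 SU5402 libraries met the fold limit in every pair and missed the level. The fold limit is weak at few reads, since any SU5402 read meets it where DMSO libraries held none. With the level at 0.5 CPM, the set held 260 contigs.

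The members together took 1569 to 5026 CPM of a SU5402 library and 206 to 377 CPM of a DMSO library. In SU5402 embryos their summed level was 1620 ± 71.9, 3138 ± 203 and 4902 ± 175 CPM at 3, 6 and 9 h of early treatment and 2928 ± 144, 2498 ± 149 and 2030 ± 228 CPM at 3, 6 and 9 h of late treatment (SD, n = 2 libraries). In DMSO embryos it was 368 ± 12.3, 296 ± 23.4 and 280 ± 5.78 CPM in the early series and 210 ± 5.91, 220 ± 3.18 and 250 ± 17.2 CPM in the late series. The sum in SU5402 embryos was highest at 9 h in the early series and at 3 h in the late series. That the sums of SU5402 and DMSO libraries do not overlap within a pair follows from the rule. A few contigs carried much of it, since the 5 most abundant members held 32.9% to 52.4% of the sum in a SU5402 library.

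**Figure D1:**
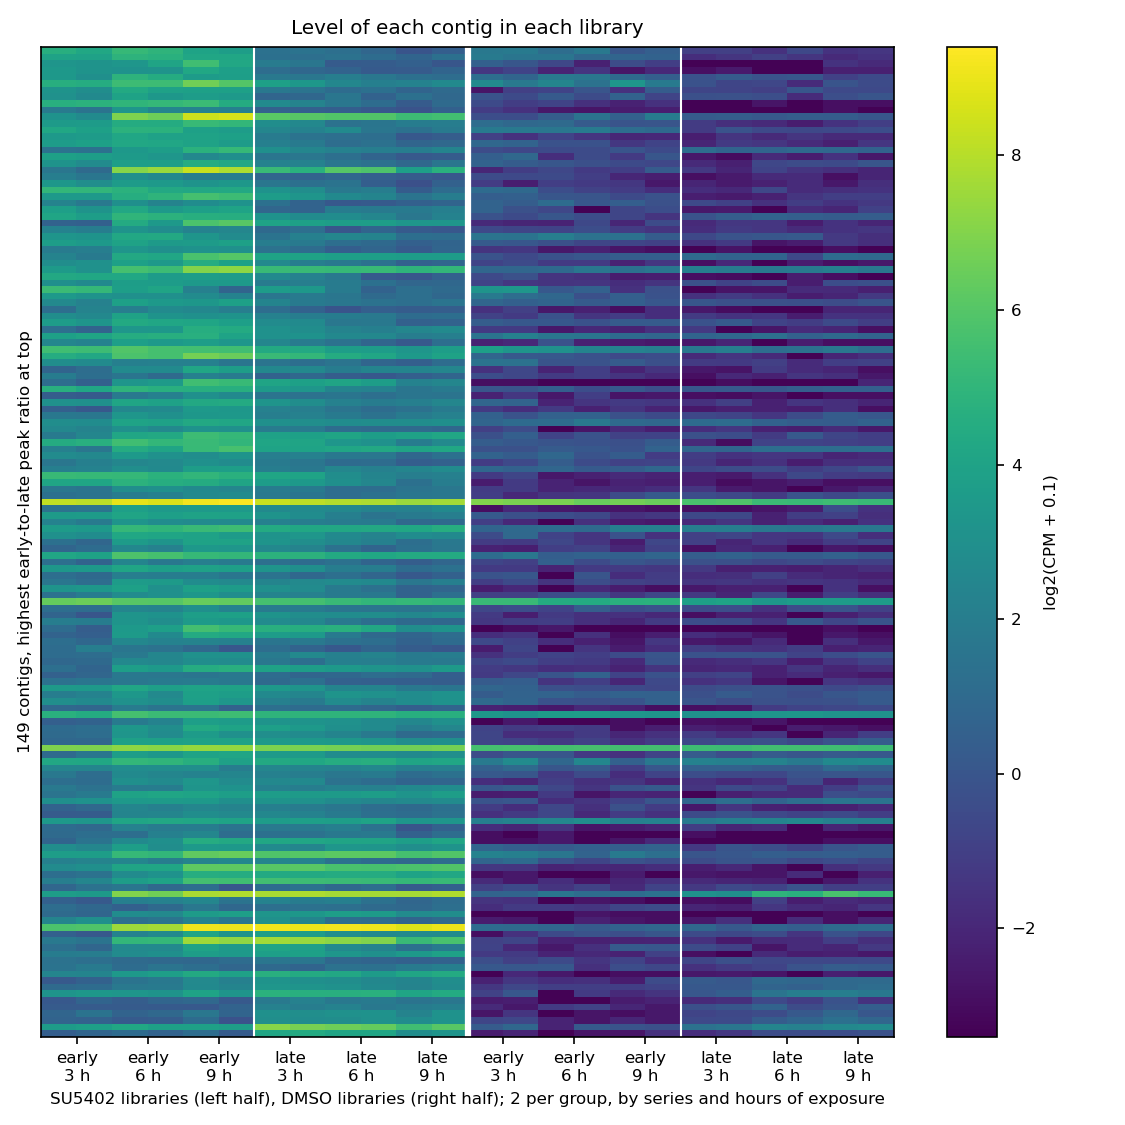
Level of the 149 contigs (rows) in the 24 libraries (columns), as log2(CPM + 0.1), with SU5402 libraries on the left and DMSO libraries on the right, 2 libraries for each series and exposure time. Rows are ordered by the ratio of the highest early to the highest late mean level in SU5402 embryos. In the DMSO libraries 114 of the rows have a mean under 1 CPM, about 0 on the scale.

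Most members were rare in DMSO embryos, as were most contigs of the table. A mean of 1 CPM or more in a DMSO group was reached by 36578 to 45214 of all 96094 contigs. The rule sets no lower limit on the DMSO level. The mean level over the 12 DMSO libraries was under 1 CPM for 114 members, 1 to 10 CPM for 31 and 10 CPM or more for 4, with a median of 0.479 CPM. Reads were absent from at least 1 DMSO library for 46 members and from 6 or more for 5, while 0 members lacked reads in all 12. In SU5402 embryos the geometric mean over the 6 groups had a median of 6.06 CPM, with 57 members under 5 CPM and 4 over 100 CPM. The fewest reads of a member in a SU5402 library were 13, and all 149 passed the low count filters of the fits below.

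ContigAmph15512 and ContigAmph24501 had the highest levels in SU5402 embryos, and they differed in their DMSO level. ContigAmph15512 had 303 and 268, 493 and 418, and 580 and 639 CPM in SU5402 libraries at 3, 6 and 9 h of the early series, against 126 and 113, 112 and 85.1, and 101 and 89.5 CPM in DMSO libraries. At 3, 6 and 9 h of the late series it had 328 and 282, 246 and 223, and 178 and 194 CPM in SU5402 libraries, against 52.4 and 57.8, 40.3 and 38, and 43.1 and 39 CPM in DMSO libraries. It was thus an abundant contig in every library. ContigAmph24501 had 54.8 and 58.1, 181 and 201, and 552 and 544 CPM in SU5402 libraries at 3, 6 and 9 h of the early series, against 1.98 and 1.9, 1.65 and 1.11, and 1.42 and 1.65 CPM in DMSO libraries. Late SU5402 libraries had 562 and 548, 586 and 547, and 443 and 518 CPM at 3, 6 and 9 h, against 1.74 and 1.02, 1.63 and 1.29, and 1.91 and 2.14 CPM in DMSO libraries. It stayed near 1 to 2 CPM in DMSO embryos, and its SU5402 libraries of late 3 h lay close to those of early 9 h.

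ContigAmph7465 had, after ContigAmph15512, the highest DMSO level of the set. In SU5402 libraries it had 121 and 119, 147 and 140, and 164 and 162 CPM at 3, 6 and 9 h of the early series, against 49.7 and 50.9, 49.9 and 51.2, and 46.8 and 47.4 CPM in DMSO libraries. Late SU5402 libraries had 119 and 113, 107 and 99.6, and 98 and 104 CPM at 3, 6 and 9 h, against 42.2 and 41.2, 45.2 and 46.7, and 44 and 42.1 CPM in DMSO libraries. Its ratio of SU5402 to DMSO level, from the pooled reads of each group, was between 2.26 and 3.46 in the 6 pairs.

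The widest gaps lay at contigs near absence in DMSO embryos. ContigAmph434 had the largest value of the smallest ratio over the 6 pairs, 51.6 between its lowest SU5402 and its highest DMSO library, at early 3 h. In SU5402 libraries it had 17.3 and 17.3, 27.8 and 24, and 22 and 16.9 CPM at 3, 6 and 9 h of the early series and 12.7 and 11.1, 7.66 and 5.53, and 2.42 and 3.94 CPM at 3, 6 and 9 h of the late series. Its DMSO libraries held 1 to 10 reads each. ContigAmph65769 was next. It had 1.53 and 2.66, 6.18 and 7.73, and 22.6 and 20 CPM in SU5402 libraries of the early series and 18.9 and 18.1, 17 and 16.7, and 13.4 and 17.4 CPM in those of the late series, while its DMSO libraries held 0 to 5 reads each. At late 3 h both DMSO libraries held 0. With 3 reads over the DMSO pair taken as the floor, it was at least 409-fold higher there, and this floor covers counting error only.

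Over the members, the median ratio of SU5402 to DMSO level was 6.98, 24.7 and 29.8 at 3, 6 and 9 h of early treatment and 19.7, 12.3 and 8.71 at 3, 6 and 9 h of late treatment. The ratio was above 10 for 56, 112 and 120 members in the early pairs and for 97, 85 and 65 in the late pairs. Of all contigs at 1 CPM or more in SU5402 embryos, 13%, 21.4% and 15.9% were above a ratio of 2 in the early pairs and 8.76%, 7.98% and 4.54% in the late pairs. Every member was above 2 by the rule, and the share of all contigs above 10 was not determined. These shares are therefore no background for the counts of members above 10. DMSO reads were absent from 26 of the 894 combinations of member and pair, whose ratios are lower bounds. Of these bounds, 1 at early 6 h and 4 at late 6 h were under the median. The smallest of a member's 6 ratios was at early 3 h for 78 members and at late 9 h for 51, and the largest was at early 9 h for 79.

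**Figure D2:**
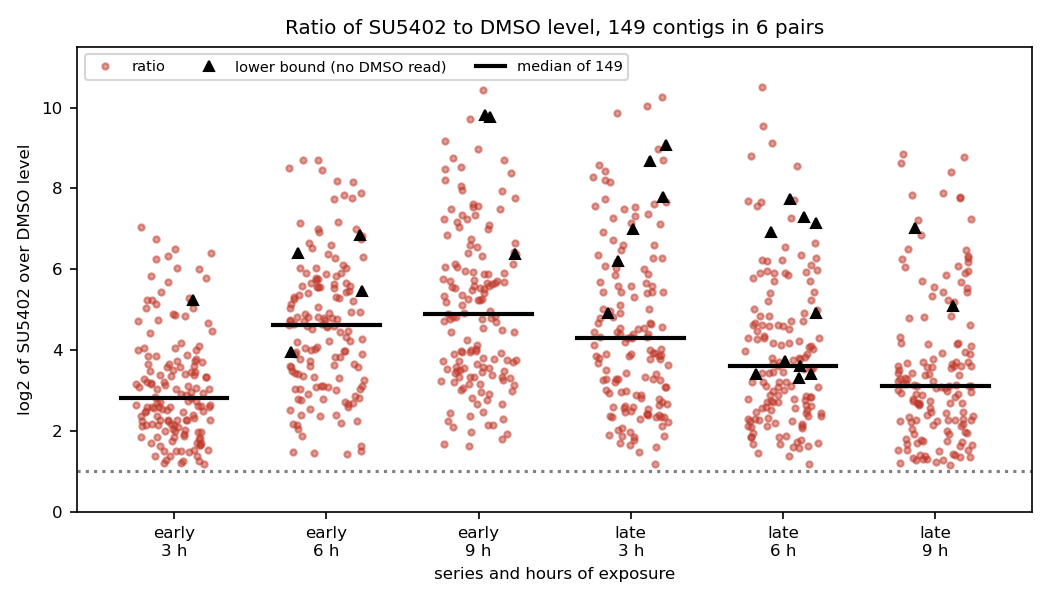
Log2 of the ratio of SU5402 to DMSO level, from the pooled reads of each group, for 149 contigs in the 6 pairs of series and exposure time. Points are contigs, triangles are lower bounds where the DMSO pair held no read (3 reads were used), the thick line is the median and the dotted line a ratio of 2. The median goes up with time in the early series and down with time in the late series.

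How the level in SU5402 embryos changed between 3 and 9 h was tested within each series, with edgeR's quasi-likelihood test and Benjamini-Hochberg adjustment over all contigs tested. The rule had used these levels in the same libraries, so nothing is read from the gap between members and all contigs. In the early series 75 of the 149 members rose, 6 fell and 68 did not pass the threshold of 0.05, with a median log2 change of 0.80. Of all 77193 contigs tested, 23.2% rose and 19.5% fell, with a median of 0.03. In the late series 5 members rose, 115 fell and 29 did not pass, with a median log2 change of -0.82, while 15.8% of 73087 contigs rose and 17.2% fell, with a median of -0.04. Of the 75 members that rose in the early series, 57 fell in the late series, 2 rose and 16 did not pass. All 6 that fell in the early series also fell in the late series. Of the 68 that did not pass in the early series, 52 fell in the late series, so a late fall was not particular to the early rises. The share of all contigs with both calls was not determined. A fit of all 24 libraries, which share 1 dispersion, called 71 members in the late series, 69 of them lower at 9 h.

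**Figure D3:**
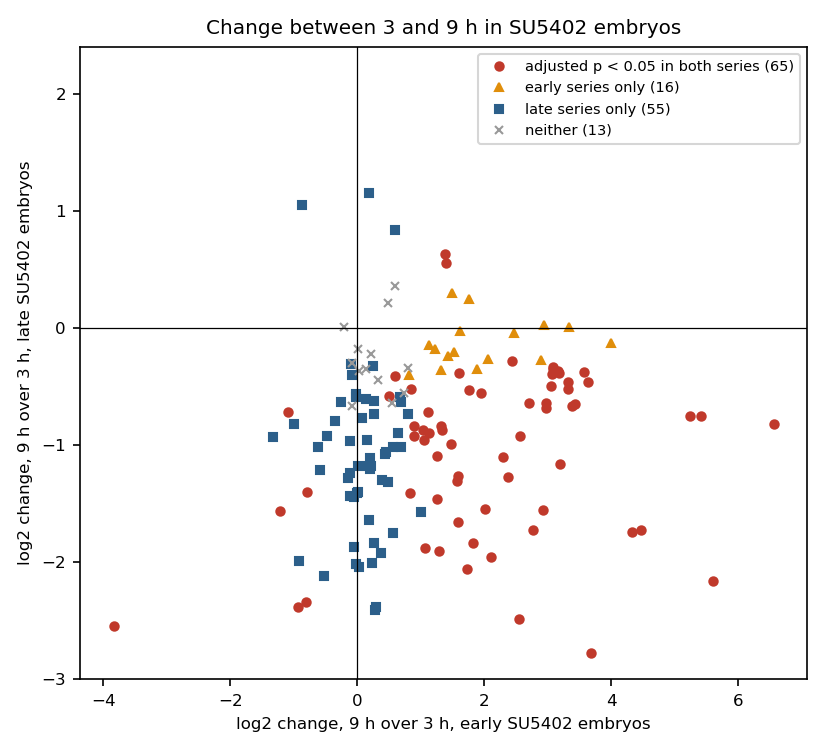
Log2 change of level between 3 and 9 h in SU5402 embryos, early series on the x axis and late series on the y axis, for the 149 contigs. Symbols mark in which series the adjusted p of edgeR's quasi-likelihood test was under 0.05. The 57 contigs that rose in the early and fell in the late series are in the lower right.

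ContigAmph54911 had the smallest p both among the early rises and among the late falls. In early SU5402 embryos it had 3.3 and 2.76 CPM at 3 h, 33.9 and 35.1 CPM at 6 h and 188 and 153 CPM at 9 h. In late SU5402 embryos it had 198 and 174 CPM at 3 h, 142 and 124 CPM at 6 h and 38.2 and 52.7 CPM at 9 h, and its DMSO libraries held 2 to 15 reads each. Its level at 9 h of early treatment was close to that at 3 h of late treatment, and no library of one time overlapped those of the next within a series. The log2 change between 3 and 9 h was 5.61 in the early series (SE 0.18, adjusted p = 3.05e-08, edgeR) and -2.16 in the late series (SE 0.11, adjusted p = 1.05e-14, edgeR).

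ContigAmph24501 was next among the early rises, with a log2 change of 3.09 (SE 0.14, adjusted p = 1.41e-07, edgeR). ContigAmph26790 went the other way. It had 39.6 and 34.9 CPM at 3 h, 13.7 and 16.6 CPM at 6 h and 4.4 and 1.56 CPM at 9 h of early SU5402 treatment, a log2 change of -3.84 between 3 and 9 h (SE 0.46, adjusted p = 8.66e-05, edgeR). In DMSO embryos it had 9.11 and 10.1 CPM, 0.988 and 1.38 CPM, and 0.236 and 0.758 CPM at these times, and it fell there too, with a log2 change of -4.45 (SE 0.52, adjusted p = 6.88e-05, edgeR). ContigAmph31498 fell by 0.94 in early SU5402 embryos (SE 0.23, adjusted p = 0.0067, edgeR), a call that was lost without SU5402 early 3 h replicate 1 (adjusted p = 0.0603, edgeR).

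Among the late falls ContigAmph1525 followed, at 17.6 and 16.1 CPM at 3 h, 7.2 and 5.07 CPM at 6 h and 4.09 and 4.36 CPM at 9 h of SU5402 treatment, a log2 change of -2.12 (SE 0.14, adjusted p = 1.68e-12, edgeR). In early SU5402 embryos it had stood at 37.6 and 36.2 CPM at 3 h. The 2 late rises with the smallest p were at ContigAmph81467 and ContigAmph10219. ContigAmph81467 had 1.88 and 1.53 CPM at 3 h, 2.62 and 2.54 CPM at 6 h and 3.47 and 4.23 CPM at 9 h of late SU5402 treatment, a log2 change of 1.05 (SE 0.2, adjusted p = 0.000126, edgeR). ContigAmph10219 had 1.7 and 1.49 CPM at 3 h, 3.86 and 3.54 CPM at 6 h and 3.54 and 4.2 CPM at 9 h, a log2 change of 1.16 (SE 0.22, adjusted p = 0.000179, edgeR), which was not called in the fit of all 24 libraries (adjusted p = 0.0814, edgeR). In both, the libraries of 9 h lay above those of 3 h without overlap.

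Between replicates, a member's levels in SU5402 embryos differed by a median factor of 1.13 to 1.19 in the 6 groups. At late 9 h replicate 1 was the lower of the pair for most members, with a median log2 ratio of replicate 1 to replicate 2 of -0.24. A late change of level in SU5402 embryos, in either direction, was called for 97 to 121 members when single libraries of that series were left out.

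**Figure D4:**
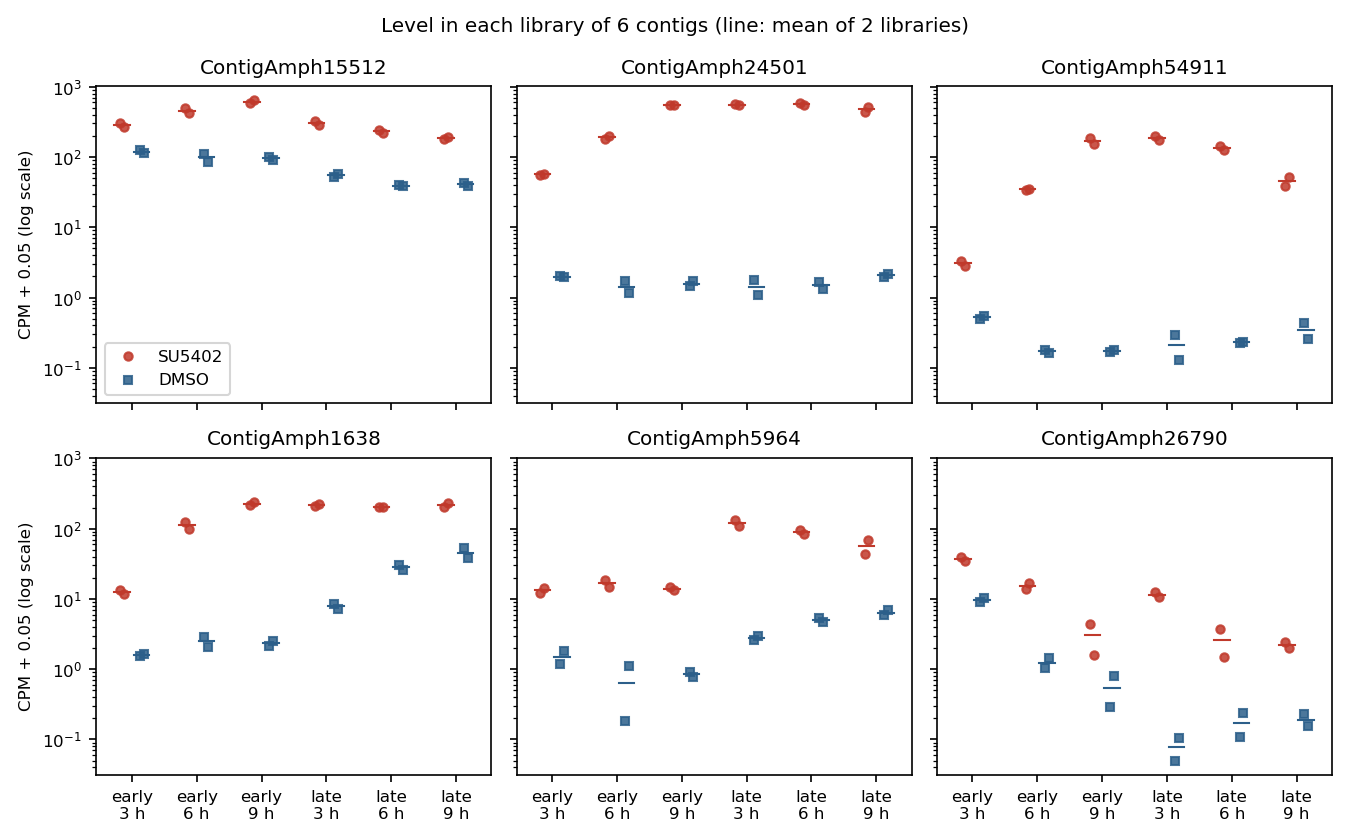
Level in each library, as CPM + 0.05 on a log axis, of 6 contigs at each series and exposure time, with SU5402 libraries (circles) left of DMSO libraries (squares). Short lines are means of 2 libraries. SU5402 libraries are above DMSO libraries in every pair, and the 6 contigs differ in how their levels change with time.

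In DMSO embryos members more often fell than rose in the early series, and 27 were called in the late series. Few reads limit these calls, since 114 members had a DMSO mean under 1 CPM. The rule also used these levels, so nothing is read from the gap to all contigs. In the early series 6 members rose and 48 fell between 8 and 14 hpf, with a median log2 change of -0.87, against 20.6% and 20.3% of all contigs and a median of -0.06. In the late series 19 rose and 8 fell between 18.5 and 24.5 hpf, with a median of 0.08, against 17.5% and 16% of all contigs and a median of -0.02. The rise in early SU5402 embryos came with a fall in DMSO embryos at 16 members, with a rise there at 6, and with no call there at 53. The shares of all contigs with such pairs of calls were not determined.

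ContigAmph31498 and ContigAmph32496 fell with the smallest p in early DMSO embryos. ContigAmph31498 had 0.355 and 0.198 CPM at 9 h and 1.98 and 1.84 CPM at 3 h (log2 change -2.92, SE 0.31, adjusted p = 3.65e-05, edgeR). ContigAmph32496 had 0.325 and 0.297 CPM at 9 h and 1.65 and 1.5 CPM at 3 h (log2 change -2.49, SE 0.26, adjusted p = 2.89e-05, edgeR). In SU5402 embryos ContigAmph32496 had 20.1 and 21.5 CPM at 9 h and 8.35 and 8.18 CPM at 3 h, a log2 change of 1.14 (SE 0.2, adjusted p = 0.00098, edgeR). The rises in early DMSO embryos with the smallest p were at ContigAmph31011, with 4.25 and 4.45 CPM at 9 h and 1.53 and 1.84 CPM at 3 h (log2 change 1.21, adjusted p = 0.000253, edgeR), and ContigAmph34266, with 24 and 28 reads at 9 h and 1 and 7 reads at 3 h (log2 change 2.49, adjusted p = 0.00827, edgeR).

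ContigAmph1638 had the smallest p among the rises in late DMSO embryos. It had 8.52 and 7.19 CPM at 3 h, 30.2 and 26 CPM at 6 h and 52.5 and 37.8 CPM at 9 h of late DMSO treatment, a log2 change of 2.44 between 3 and 9 h (SE 0.12, adjusted p = 1.88e-15, edgeR). In late SU5402 embryos it had 212 and 225, 204 and 202, and 205 and 232 CPM at 3, 6 and 9 h, a log2 change of -0.13 that did not pass (adjusted p = 0.336, edgeR). SU5402 libraries of 18.5 hpf therefore already held more of this contig than DMSO libraries of 24.5 hpf. In early SU5402 embryos it had 13.2 and 11.6, 124 and 98, and 219 and 236 CPM at 3, 6 and 9 h, against 1.47 and 1.57, 2.83 and 2.05, and 2.07 and 2.51 CPM in early DMSO embryos. ContigAmph3843 also rose in late DMSO embryos, with a log2 change of 1.6 (SE 0.21, adjusted p = 8.15e-07, edgeR), while ContigAmph15512 fell by 0.52 (SE 0.083, adjusted p = 1.45e-05, edgeR). ContigAmph28042 fell by 2.39 (SE 0.57, adjusted p = 0.00156, edgeR), with 3 and 2 reads at 9 h and 12 and 18 reads at 3 h of late DMSO treatment.

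The next tests ask whether the SU5402 effect, the log2 ratio of SU5402 to DMSO level, differed between 9 and 3 h. They use ratios that the rule had held above a lower limit in every pair, in the same libraries, so they bear on the order of the ratios and not on their presence. Contigs at 1 CPM or more in SU5402 embryos, a smaller set than all contigs tested, had a median log2 ratio of 0.02 to 0.10 in the 6 pairs. Every member had a log2 ratio above 1 by the rule, so the 2 sets started from unlike ratios. The shares of all contigs are therefore printed beside the counts of members, and nothing is read from the gap between them. For 9 members a DMSO group of 3 or 9 h held no read, and their fitted changes depend on the prior count. In the early series the effect grew for 54 members and shrank for 0, with a median change of 1.65, against 3.76% and 1.65% of all contigs and a median of 0.11. At an unadjusted p under 0.05 it also shrank for 0 members, and the Wald test of DESeq2 called 67 growing and 0 shrinking. In the late series it grew for 1 member and shrank for 44, with a median change of -0.87, against 7% and 8.63% of all contigs and a median of 0.01. At 15 members the effect both grew in the early and shrank in the late series, and at 29 it shrank in the late series with no early call. The share of all contigs with both calls was not determined.

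The early count was lower, at 34 to 44 members, whichever single library of 3 or 9 h was left out, and it was 34 without DMSO early 9 h replicate 1. A fit of all 24 libraries called 81 early members, all growing, and 20 late members, all shrinking.

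ContigAmph54911 and ContigAmph24501 had the smallest p among the growing early effects, at log2 changes of 7.65 (SE 0.32, adjusted p = 1.75e-05, edgeR) and 3.59 (SE 0.21, adjusted p = 8.87e-05, edgeR). In the late series the effect shrank most clearly at ContigAmph1638, by 2.56 (SE 0.15, adjusted p = 8.38e-13, edgeR), where the DMSO level rose, and at ContigAmph5964, by 2.33 (SE 0.24, adjusted p = 4.29e-08, edgeR). ContigAmph5964 had 133 and 111 CPM at 3 h, 94.9 and 83.3 CPM at 6 h and 44 and 68.1 CPM at 9 h in late SU5402 embryos, against 2.57 and 2.96 CPM, 5.24 and 4.6 CPM, and 5.8 and 6.86 CPM in late DMSO embryos. Its level fell in late SU5402 embryos, by 1.24 (SE 0.13, adjusted p = 8.63e-09, edgeR), and rose in late DMSO embryos, by 1.09 (SE 0.2, adjusted p = 0.000108, edgeR). The member whose late effect grew was ContigAmph28042, by 2.04 (SE 0.63, adjusted p = 0.026, edgeR), with 3 and 2 DMSO reads at 9 h. That call was lost with the Wald test of DESeq2 (adjusted p = 0.126) and in the fit of all 24 libraries (adjusted p = 0.0595, edgeR). It was also lost without DMSO late 3 h replicate 2, either library of DMSO late 9 h, SU5402 late 3 h replicate 2 or SU5402 late 9 h replicate 1, with adjusted p of 0.0604 to 0.143 (edgeR).

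**Figure D5:**
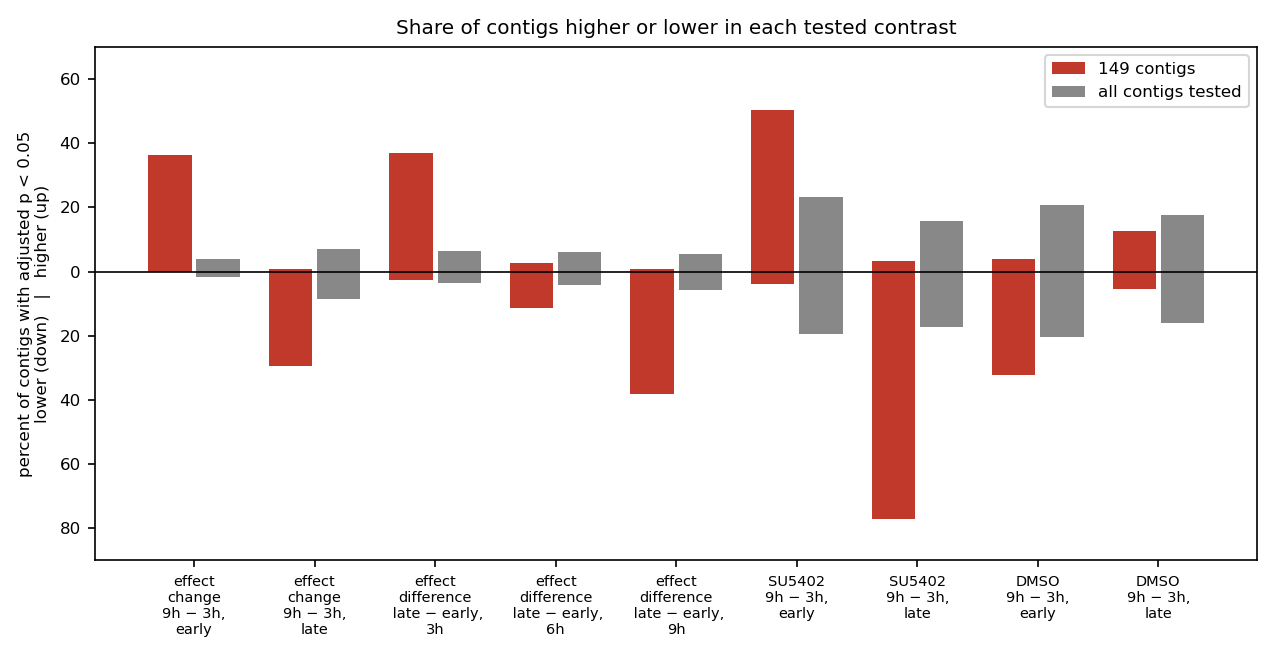
Percent of the 149 contigs (left bars) and of all contigs tested (right bars) with an adjusted p under 0.05 in 9 contrasts, bars above 0 for higher and below 0 for lower values. The contrasts are the change of the SU5402 effect between 3 and 9 h, the difference of the effect between late and early treatment, and the change of level between 3 and 9 h in SU5402 and in DMSO embryos. The longest bar is that of the 77.2% of members that fell in late SU5402 embryos. For the 5 effect contrasts, members and all contigs are not comparable, since the members were chosen by their ratios. Changes of level come from the same libraries, whose levels the rule also used, so nothing is read from that gap either.

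Late and early treatment were compared at equal exposure in the fit of all 24 libraries. These differences too are between ratios that chose the members, so the same limit holds for the shares of all contigs. At 3 h the SU5402 effect was larger with late treatment for 55 members and smaller for 4, with a median difference, late minus early, of 1.36, against 6.36% and 3.52% of all contigs and a median of 0.07. At 6 h it was larger for 4 and smaller for 17, with a median of -0.32, against 6.11% and 4.09% and a median of 0.08. At 9 h it was larger for 1 and smaller for 57, with a median of -1.31, against 5.55% and 5.82% and a median of 0.00. At 17 members the effect was larger with late treatment at 3 h and smaller at 9 h. At 36 it was smaller at 9 h with no call at 3 h. The share of all contigs with both calls was not determined. Without SU5402 late 6 h replicate 2 the count of differing members at 6 h was 11, and without DMSO late 9 h replicate 2 that at 9 h was 37. Over all contigs tested, late replicates were closer to each other than early ones. The common biological coefficient of variation was 6.83% (late) and 27.2% (early) when fitted apart, and 18.3% in the fit of all libraries. The median absolute log2 ratio between replicates is another measure, which also includes counting noise. For all contigs at 1 CPM or more in SU5402 libraries it was 0.25, 0.26 and 0.222 at early 3, 6 and 9 h. For them it was 0.133, 0.153 and 0.131 at late 3, 6 and 9 h. Counting noise is larger at low levels, so members' values do not show whether their dispersion differed between series. For members in SU5402 libraries the ratio was 0.203, 0.25 and 0.214 at early 3, 6 and 9 h. At late 3, 6 and 9 h this ratio was 0.179, 0.216 and 0.253. In DMSO libraries the members' values were 0.208, 0.285 and 0.208 (early) against 0.149, 0.21 and 0.162 (late).

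ContigAmph24501 had the smallest p among the larger late effects at 3 h, with a difference of 3.87 (SE 0.24, adjusted p = 1.13e-08, edgeR), followed by ContigAmph54911, with 7.59 (SE 0.47, adjusted p = 1.27e-08, edgeR). The effect was smaller with late treatment at 3 h for ContigAmph1122 and ContigAmph26768. ContigAmph1122 had 8.49 and 6.68 CPM in SU5402 embryos against 0.821 and 1.18 CPM in DMSO embryos at late 3 h, and 17.3 and 13.2 CPM against 0.796 and 0.602 CPM at early 3 h, a difference of -1.47 (SE 0.4, adjusted p = 0.0233, edgeR). ContigAmph26768 had a difference of -2.12 (SE 0.62, adjusted p = 0.0344, edgeR). The first call was lost without SU5402 early 3 h replicate 1, SU5402 late 3 h replicate 2, DMSO early 3 h replicate 2 or DMSO late 3 h replicate 2 (adjusted p = 0.0854 to 0.179, edgeR), and with limma-voom (adjusted p = 0.0616). The second was lost without any single library of these 4 groups other than SU5402 early 3 h replicate 2 (adjusted p = 0.0502 to 0.119, edgeR).

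At 6 h ContigAmph33987 had the larger late effect with the smallest p. It had 71.7 and 73.1 CPM in SU5402 embryos against 1.22 and 1.2 CPM in DMSO embryos at late 6 h, and 36.2 and 32.1 CPM against 2.96 and 1.5 CPM at early 6 h (difference 2.05, SE 0.38, adjusted p = 0.00147, edgeR). ContigAmph24501 followed with a difference of 1.55 (SE 0.3, adjusted p = 0.00193, edgeR), which limma-voom did not call (adjusted p = 0.0778). ContigAmph1638 and ContigAmph28602 had the smaller late effects with the smallest p, with differences of -2.56 (SE 0.26, adjusted p = 5.36e-06, edgeR) and -3.73 (SE 0.45, adjusted p = 2.85e-05, edgeR). ContigAmph28602 had 6.55 and 5.38 CPM in SU5402 embryos against 1.57 and 2.21 CPM in DMSO embryos at late 6 h, and 11 and 11.7 CPM against 0.198 and 0.277 CPM at early 6 h. The gap between stages thus lay mainly in the DMSO level.

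At 9 h ContigAmph1638 again had the smallest p, with a difference of -4.34 (SE 0.25, adjusted p = 6.06e-09, edgeR). ContigAmph18540 had 3.99 and 5.04 CPM in SU5402 embryos against 1.73 and 1.44 CPM in DMSO embryos at late 9 h, and 27 and 35.7 CPM against 0.857 and 0.594 CPM at early 9 h (difference -3.89, SE 0.36, adjusted p = 1.08e-06, edgeR). Its SU5402 level was thus lower, and its DMSO level higher, in late than in early embryos. The member with the larger late effect at 9 h was ContigAmph28042, with a difference of 1.85 (SE 0.57, adjusted p = 0.0414, edgeR). That call was lost without either library of SU5402 early 9 h, of DMSO late 3 h or of DMSO late 9 h, without SU5402 late 9 h replicate 1 and without DMSO early 9 h replicate 2 (adjusted p = 0.0513 to 0.2, edgeR). It was also lost with unscaled library totals (adjusted p = 0.0514, edgeR), with limma-voom (adjusted p = 0.0562) and with the Wald test of DESeq2 (adjusted p = 0.126).

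By mean level in SU5402 embryos, 68 members had their highest value at early 9 h, 54 at early 6 h and 9 at early 3 h, and 14, 2 and 2 members at late 3, 6 and 9 h. These levels are scaled by library totals only. TMM factors of SU5402 libraries went from 0.804 at early 3 h to 1.23 at late 6 h. Libraries of 6 h also had 15 PCR cycles against 12 at other times. How far this moves the ranking was not tested. The highest late group mean was within 2-fold of the highest early one for 74 members. It was under the early one by more than 2-fold for 68 members and above it by more than 2-fold for 7. ContigAmph56516, named after its values were seen, was the most uneven of these 7, at 18 and 21.7 CPM in SU5402 embryos at late 3 h and 2.01 and 1.48 CPM at early 6 h, its highest group in each series. ContigAmph5964 was another, with a highest early group mean 0.137 times its highest late one.

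The members did not follow a single course over the 12 SU5402 libraries. Across all 11026 pairs of members, Pearson's r of log2(CPM + 0.5) had a median of 0.487, with 433 pairs above 0.95 and 2455 below 0, and all points share the same libraries and depths. The contigs most like ContigAmph15512 were ContigAmph7465 (r = 0.981) and ContigAmph32775 (r = 0.977), over 12 libraries. ContigAmph32775 had 2.76 and 3.94 CPM at late 9 h and 50 and 40.7 CPM at early 9 h in SU5402 embryos. Those most like ContigAmph24501, looked up after its values were seen, were ContigAmph54570 (r = 0.996) and ContigAmph54734 (r = 0.995). In SU5402 embryos ContigAmph54570 had 20.7 and 20.9 CPM at late 3 h and 2.23 and 2.63 CPM at early 3 h. ContigAmph54734 had 45.7 and 41.1 CPM at late 3 h and 4.18 and 5.45 CPM at early 3 h.

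Some members had consecutive contig numbers, though the sources used here do not say what the order of the numbers means. There were 7 such pairs, holding 14 members. Their r over the SU5402 libraries was between -0.43, for ContigAmph2724 and ContigAmph2725, and 0.99, for ContigAmph33719 and ContigAmph33720, with a median of 0.922. Of 282 other contigs numbered directly beside a member, 64 (22.7%) met the conditions in at least 1 pair, against 11.9% of all contigs, and 26 (9.22%) in 3 or more, against 2.72%. These shares were not tested. All contigs include many that cannot meet the level limit, since 39482 to 46175 of 96094 reached 1 CPM in a SU5402 group. Whether contigs beside members differ from all contigs in level was not determined. Since 1 gene can give several contigs, the members may stand for fewer genes than contigs.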

How the data were processed

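RNA-seq libraries of whole amphioxus embryos were made from mRNA selected with oligo-dT beads from 2 µg of total RNA and primed at random, per the labels' protocols. These name 15 PCR cycles for libraries of 6 h and 12 for those of 3 and 9 h, the same in SU5402 and DMSO groups. The authors deposited raw counts of reads per contig. Per the submitters' processing notes the tools included BWA 0.6.1, and the sources used here give neither the assembly nor the counting rule. Library totals were 10866511 to 18924324 reads at 6 h and 27687922 to 39988564 at 3 and 9 h, so 1 CPM is 10.9 reads in the shallowest library. No 2 replicates agreed within sampling noise, and the chi-square per degree of freedom was lowest, at 1.32, for DMSO late 6 h.

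The members and the contrasts were chosen with earlier results of these data known. CPM were computed on column totals, with Python 3.11.15 and pandas 2.3.3. Ratios use the pooled reads of each group of 2 libraries, with 3 reads in place of 0. Contrasts were fitted with edgeR 4.0.16 in R 4.3.3 (filterByExpr, TMM factors, glmQLFit with 1 coefficient per group, two-sided glmQLFTest, Benjamini-Hochberg adjustment over all contigs, threshold 0.05). Changes with time used the 12 libraries of a series (6 residual degrees of freedom), and differences between series used all 24 (12 residual degrees of freedom). The SE is the absolute log2 change divided by the square root of F. Alternatives used DESeq2 1.42.0 and limma 3.58.1. The contigs named are those with the highest SU5402 level, the highest DMSO level, the largest smallest ratio, values nearest the limits, the 2 smallest p in each direction of each contrast, and the likest course, unless stated. Replicate numbers entered only an alternative fit, because no label gives their meaning.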

Additional observations from a re-analysis of the deposited data

Results flagged for a closer look

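The SU5402 effect differed between exposure times or between series for the following numbers of the 149 contigs, each by a test of the difference itself (edgeR's quasi-likelihood test, adjusted p under 0.05), in the libraries that chose the contigs. Between 9 and 3 h it differed for 54 in the early and 45 in the late series. Of all contigs tested, it grew for 3.76% and shrank for 1.65% in the early series. In the late series it grew for 7% and shrank for 8.63%. Between late and early treatment it differed for 59 at 3 h, 21 at 6 h and 58 at 9 h. Of all contigs tested, it was larger with late treatment for 6.36% and smaller for 3.52% at 3 h. These shares were 6.11% and 4.09% at 6 h, and 5.55% and 5.82% at 9 h. Members were chosen by these ratios, so nothing is read from the gap to all contigs.

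Among single contigs, the change of effect between 9 and 3 h was 7.65 for ContigAmph54911 and 3.59 for ContigAmph24501 in the early series, and 2.04 for ContigAmph28042, -2.56 for ContigAmph1638 and -2.33 for ContigAmph5964 in the late series, on the log2 scale. The difference of effect between late and early treatment at 3 h was 3.87 for ContigAmph24501, 7.59 for ContigAmph54911, -1.47 for ContigAmph1122 and -2.12 for ContigAmph26768. At 6 h it was 2.05 for ContigAmph33987, 1.55 for ContigAmph24501, -2.56 for ContigAmph1638 and -3.73 for ContigAmph28602. At 9 h it was 1.85 for ContigAmph28042, -4.34 for ContigAmph1638 and -3.89 for ContigAmph18540.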

How the results depend on the processing

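The number of members followed the limits of the rule, with 236, 95 and 66 contigs at fold limits of 1.5, 3 and 4, and 260 and 24 at levels of 0.5 and 5 CPM. It was 131 with TMM-scaled and 134 with DESeq2-scaled library sizes, 124 of each shared with the 149, and 144 to 167 without single libraries. The effect change between 9 and 3 h was called for 34 to 57 members in the early and 30 to 49 in the late series without single libraries. For the difference between late and early treatment these ranges were 41 to 63 at 3 h, 11 to 22 at 6 h and 37 to 59 at 9 h. For the change of level they were 65 to 87 (early) and 97 to 121 (late) in SU5402 embryos, and 42 to 59 (early) and 18 to 32 (late) in DMSO embryos. A fit of all 24 libraries gave 20 members for the late effect change and 71 for the late change in SU5402 embryos. No replicate number was shared in a way the labels explain. Over 15 pairs of early groups the deviations of same-numbered libraries correlated with a median r of 0.583, from -0.67 to 0.776, and all 5 pairs with SU5402 early 9 h were below -0.1. In the late series r was -0.18 to 0.07. With the replicate block the 9 counts were 19 to 120 and each was within 1.5 times its value without it, for example 64 for the early effect change. With the numbers of SU5402 early 9 h exchanged, an alternative chosen after seeing the data, the replicate block gave 91, 79, 23, 69, 104 and 73 members for the early effect change, the differences at 3, 6 and 9 h, and the early changes in SU5402 and in DMSO embryos. Of 729 values of single named contigs under alternatives, 696 kept direction and call, 33 lost the call and 0 turned direction. Few reads in DMSO libraries limit the ratios of rare members.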
